A study of Homo sapiens with 6 samples.

Results

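The genes that copy DNA and supply its building blocks were followed in MDA-MB-453 cells after knockdown of *DUSP6*, the gene of a phosphatase that removes phosphate from the kinase ERK. The 51 genes were listed by name, from the loading of the replicative helicase to the synthesis of deoxynucleotides. They were chosen with earlier results of these data known. All 51 were found in the deposited table of 22807 genes, with 1 row each, and all passed the filter on low values. MDA-MB-453 is an established HER2+ breast cancer cell line. In every sample it was grown in RPMI with serum, and the labels give no other alteration. The 3 control libraries came from cells given scrambled siRNA (genotype label WT), and the other 3 from cells given *DUSP6* siRNA (genotype label DUSP6 KD). The study used 3 different *DUSP6* siRNAs and 3 different scrambled controls, and the labels do not say which one went into which library. The spread within a group may therefore hold differences between siRNAs.

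Replication starts when the origin recognition complex, with CDC6 and CDT1, loads the ring of MCM2 to MCM7 onto DNA, a step that geminin (GMNN) blocks outside its proper window. CDC45 and the GINS complex join the ring to make the CMG helicase, which unwinds the duplex ahead of the polymerases. The sliding clamp PCNA, placed by the RFC clamp loader, tethers the polymerases, RPA coats the single strand, and FEN1 and LIG1 finish the lagging strand. Ribonucleotide reductase, thymidylate synthase and thymidine kinase supply the deoxynucleotides. Many of these genes are transcribed as cells enter S phase, and E2F factors and the CCAAT-binding factor NF-Y are classic regulators of their promoters.

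Values are normalized values per gene and library, reads scaled for depth and composition, with 45546981 to 85729785 reads recovered per library. The lowest read number of any of the 51 genes in any library was 457 (*TYMS*). *DUSP6* itself (Entrez gene 1848) had values of 209, 110 and 114 after scrambled siRNA and 39.4, 24.5 and 35.2 after *DUSP6* siRNA, given here and throughout in the order of replicates 1 to 3. The groups did not overlap, and the difference was -2.05 ± 0.25 (SE) on the log2 scale (limma adjusted p = 0.000309). The 10 luminal and HER2+ markers checked (such as *ERBB2*, *KRT8* and *GATA3*) all had mean values above 100, with a sum of 5873 to 7300 in the scrambled siRNA libraries and 4043 to 4382 in the *DUSP6* siRNA libraries. Of 12 markers of blood, endothelial, stromal and basal cells, 10 were in the table and 7 of these, including *PTPRC*, *PECAM1* and *COL3A1*, had means below 1. The sum of these markers was 95.3 to 127 after scrambled siRNA and 170 to 200 after *DUSP6* siRNA, most of it *COL1A1*, and its part in the results was not tested. The 10 most abundant genes took 16.9% and 16.4% of the summed value in scrambled siRNA replicates 1 and 2 and 10.4% to 10.9% in the other 4 libraries, and the part of this difference in the results was not tested.

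Fold changes are log2 differences, *DUSP6* siRNA minus scrambled siRNA, on the scale log2(value + 1), and a gene was called lower or higher at a limma adjusted p under 0.05 over all 12862 genes tested. By that rule 3179 genes (24.7%) were lower and 2540 (19.7%) were higher, and the median log2 fold change over all genes was -0.01. Scaling to the library totals alone, without the composition adjustment in the deposited values, moved that median to 0.20 and the calls to 1800 lower and 4777 higher. The median of the 51 replication genes lay at -0.58 relative to that of all genes with the deposited scaling and at -0.57 with library totals.

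Promoter sequence was available in RefSeq (GRCh38.p14) for 45 of the 51 genes, as 250 bases before to 50 after the first promoter start listed. It was not used to choose the genes. An E2F-type match (TTTCCCGC, TTTCGCGC, TTTGCCGC or TTTGGCGC, on either strand) was present in 20 of the 45 promoters (44.4%), in 5.52% of the 10127 promoters of genes tested and in 3.33% of all 27305 promoters. CCAAT, on either strand, was present in 26 of the 45 (57.8%), against 37.3% and 35.7%. Both were present in 12 of them (26.7%), against 2.35% and 1.29%. The MCM2-7, CDC45 and GINS genes had the most, with an E2F-type match in 7 of the 8 promoters available and 2 or more matches in *MCM2*, *MCM3*, *MCM6* and *MCM7*. In *MCM2* and *MCM6* matches on opposite strands overlap one another.

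The stretches shown lie before the promoter start used and are written along the gene's strand, with E2F-type and CCAAT letters in capitals. *MCM6* is shown for its 4 E2F-type matches in 2 overlapping pairs beside 2 CCAAT boxes (chr2:135876493-135876598, minus strand). *PCNA* has 1 E2F-type match among 3 CCAAT boxes (chr20:5126640-5126782, minus strand), and *GINS2* has 1 of each (chr16:85688974-85689118, minus strand). *CLSPN* (chr1:35770016-35770102, minus strand) and *MCM10* (chr10:13161436-13161460, plus strand) are shown for closely spaced CCAAT boxes. *CLSPN* also has 1 E2F-type match, at its promoter start and outside the stretch shown. *RRM2*, which fell most, has 3 CCAAT boxes and no E2F-type match in its window, and 1 of the boxes is shown (chr2:10122642-10122671, plus strand). The promoter start used for *RRM2* lies downstream of the listed gene start (chr2:10122568), so this stretch lies inside the listed gene.
MCM6: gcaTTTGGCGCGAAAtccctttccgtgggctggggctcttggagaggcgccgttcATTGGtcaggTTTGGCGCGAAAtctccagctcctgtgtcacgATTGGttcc
PCNA: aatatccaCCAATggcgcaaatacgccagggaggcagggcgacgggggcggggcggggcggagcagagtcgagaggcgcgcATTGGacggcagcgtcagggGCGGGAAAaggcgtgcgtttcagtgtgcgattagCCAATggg
GINS2: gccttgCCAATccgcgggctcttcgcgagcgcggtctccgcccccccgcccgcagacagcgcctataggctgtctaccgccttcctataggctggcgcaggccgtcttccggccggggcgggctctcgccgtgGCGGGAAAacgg
CLSPN: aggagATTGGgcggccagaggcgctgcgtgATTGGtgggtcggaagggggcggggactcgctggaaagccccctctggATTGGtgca
MCM10: gcgtCCAATgacgtaaaCCAATccg
RRM2: acagCCAATgggaagggccggggcaccaaa

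Of the 51 replication genes, 45 (88.2%) were lower after *DUSP6* siRNA and 0 were higher by limma, where 24.7% of all genes were lower and 19.7% higher. At an unadjusted p under 0.05, 45 were lower and 1 (*RPA3*) was higher. A quasi-likelihood fit in edgeR of the read numbers also gave 45 lower, the same genes, and 0 higher, beside 3245 lower and 2459 higher among all genes. With scaling to library totals 31 of the 51 were lower and 3 (*ORC4*, *RFC1* and *RPA3*) higher, beside 1800 lower and 4777 higher among all genes. The 6 genes not called were *GMNN*, *ORC4*, *GINS3*, *RFC1*, *RPA3* and *TIPIN*. Fold changes ran from -1.60 (*RRM2*) to 0.41 (*RPA3*) on the log2 scale, with a median of -0.59. Among the 45 lower genes, 3 fell by more than 1 on the log2 scale, 31 by 0.5 to 1 and 11 by less than 0.5, with SEs of 0.08 to 0.19 over the 51. In 45 genes all 3 *DUSP6* siRNA values lay below all 3 scrambled siRNA values, a pattern seen in 31.1% of all genes tested. In bulk RNA, fewer cells in S phase and less of these transcripts per cell cannot be told apart. The decrease was shared by genes with and without an E2F-type match: 19 of 20 with one were lower (median -0.60), and so were 21 of 25 without (median -0.54). Only 4 exact 8-letter forms in a 300-base window were searched, so a gene without a match may hold another site. The part of E2F factors in the decrease was not tested.

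**Figure D1:**
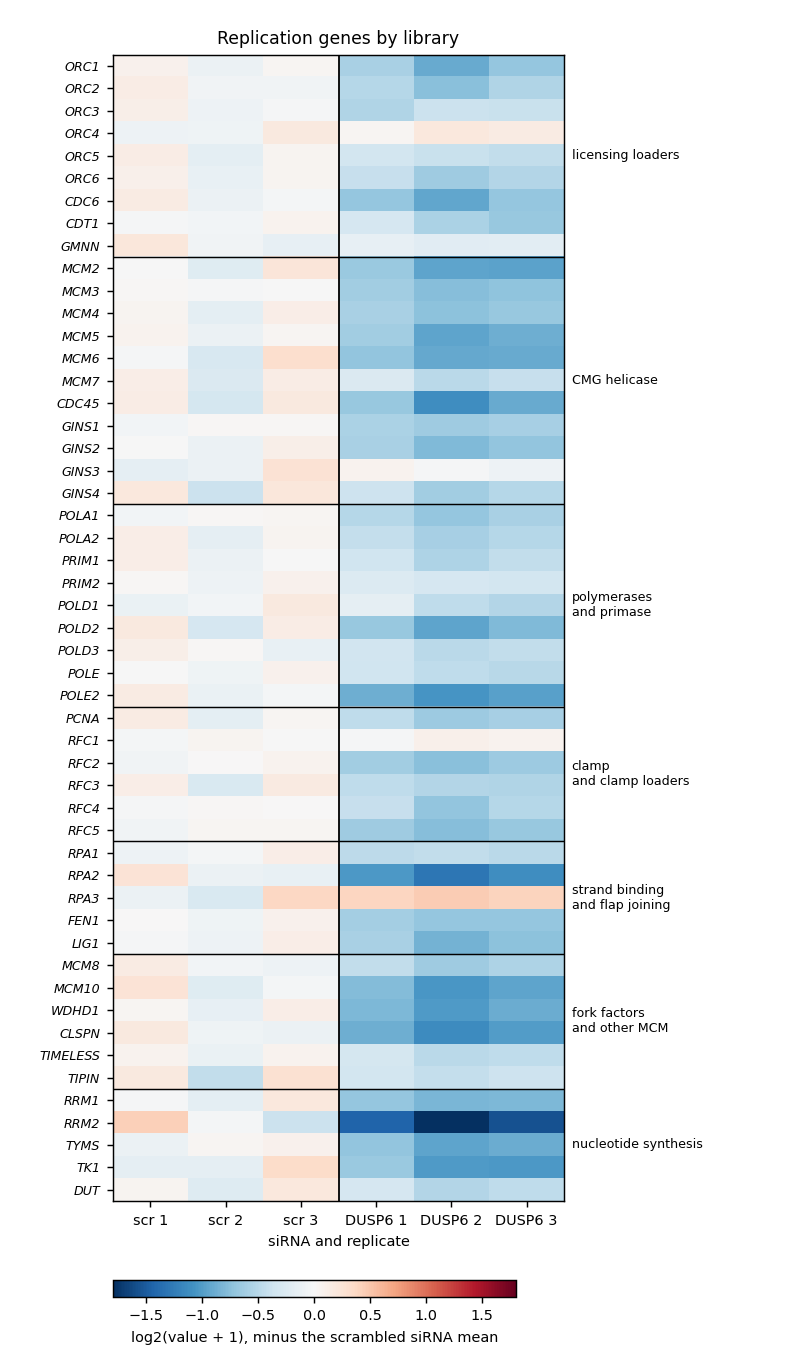
Each row is one of the 51 genes, grouped by role, and each column one library. Color gives log2(value + 1) minus the gene's scrambled siRNA mean, blue for lower and red for higher. The 3 *DUSP6* siRNA columns are blue in nearly every row, with *RPA3*, *ORC4*, *RFC1* and *GINS3* as the rows that are not, and *RRM2* is the darkest.

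The libraries within a group also differed. *DUSP6* siRNA replicate 1 had the highest of the 3 knockdown values for 45 of the 51 genes and replicate 2 the lowest for 37. Relative to the scrambled siRNA mean, the median difference over the 51 genes was -0.52, -0.69 and -0.59 on the log2 scale in *DUSP6* siRNA replicates 1 to 3. Over all genes tested it was -0.02, -0.002 and -0.02 in the same libraries. *DUSP6* itself followed the same order, with its highest knockdown value in replicate 1 and its lowest in replicate 2. With 3 libraries and siRNAs not assigned to them by the labels, a relation between these orders was not tested. In the controls the medians over the 51 genes were 0.05, -0.11 and 0.07, and scrambled siRNA replicate 2 had the lowest control value for 32 genes. How often each library was highest or lowest was not counted over all genes, so these orders may not be particular to the 51. Summed over the 51 genes, the share of the library's value was 0.434% to 0.514% after scrambled siRNA and 0.325% to 0.371% after *DUSP6* siRNA, without overlap.

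The licensing loaders fell in 7 of 9 genes (median log2 fold change -0.52). With scaling to library totals 4 were lower, as *ORC3*, *ORC5* and *CDT1* lost their calls. *CDC6*, the ATPase that brings the MCM ring to the origin, had values of 64.5, 53.7 and 56.4 after scrambled siRNA and 35.5, 29.8 and 35.5 after *DUSP6* siRNA. It fell most of the 9, from 58.2 ± 5.64 to 33.6 ± 3.27 (mean ± SD, n = 3), or by 0.77 ± 0.11 (SE) on the log2 scale (limma adjusted p = 0.000713). *ORC1*, the cell cycle-regulated large subunit of the origin recognition complex, had values of 39.0, 34.1 and 37.6 against 24.2, 19.2 and 22.4, and *ORC2* had 82.5, 72.2 and 72.1 against 52.4, 44.6 and 51.4. Neither overlapped between the groups, and their log2 fold changes were -0.73 ± 0.11 and -0.60 ± 0.10 (limma adjusted p = 0.00108 and 0.00168). *ORC3*, *ORC5*, *ORC6* and *CDT1* fell by 0.44, 0.39, 0.53 and 0.52 on the log2 scale.

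*ORC4* was the exception within the origin recognition complex. Its values were 26.3, 26.6 and 31.8 after scrambled siRNA and 28.7, 32.1 and 31.4 after *DUSP6* siRNA, so the groups overlapped. The log2 fold change was 0.12 ± 0.11 (limma adjusted p = 0.381), with a 95% confidence interval of -0.12 to 0.37 that leaves out the falls of the other 5 subunits. With scaling to library totals it was called higher, at 0.34 (limma adjusted p = 0.0433). *GMNN*, the inhibitor of CDT1, had 50.6, 41.6 and 39.4 against 39.1, 37.6 and 38.2, just without overlap, and a log2 fold change of -0.18 (95% confidence interval -0.43 to 0.07). The call of *ORC5* was lost when scrambled siRNA replicate 1 or any *DUSP6* siRNA library was left out, at limma adjusted p-values of 0.0568, 0.0562, 0.0696 and 0.0955 (log2 fold changes of -0.33, -0.42, -0.39 and -0.36). Of the *ORC4* exon bases, 6.58% overlap exons of *ACVR2A* on the opposite strand, so its values are uncertain.

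The CMG helicase fell in 10 of 11 genes (median -0.70 on the log2 scale). Scaling to library totals left 8 lower, as *MCM7* and *GINS4* lost their calls. *CDC45*, which bridges the MCM ring and GINS, had values of 93.2, 68.5 and 96.6 after scrambled siRNA and 52.9, 38.9 and 45.1 after *DUSP6* siRNA. The log2 fold change was -0.90 ± 0.15 (limma adjusted p = 0.00186), and the highest knockdown library stayed below the lowest control. *MCM2* went from 182, 157 and 213 to 114, 94.2 and 93.0, and *MCM6* from 177, 146 and 222 to 109, 93.8 and 94.9. Both are subunits of the helicase ring, with log2 fold changes of -0.86 ± 0.13 and -0.85 ± 0.15 (limma adjusted p = 0.000941 and 0.00183). *MCM5*, *MCM3* and *MCM4* fell by 0.82, 0.71 and 0.67 on the log2 scale, and *GINS2* and *GINS1* by 0.70 and 0.60.

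*MCM7* and *GINS4* were the CMG genes nearest to the threshold. *MCM7* had values of 312, 239 and 316 against 239, 205 and 215 (log2 fold change -0.39, limma adjusted p = 0.0312). Its call was lost without scrambled siRNA replicate 1 or 3 or *DUSP6* siRNA replicate 2 or 3 (adjusted p from limma of 0.092, 0.0608, 0.119 and 0.098, log2 fold changes of -0.33, -0.32, -0.34 and -0.37). It was also lost with no filter on low values (-0.39, limma adjusted p = 0.0628). Quantile normalization and library totals gave -0.17 and -0.16 (limma adjusted p = 0.233 and 0.327). *GINS4* was called at -0.51 (limma adjusted p = 0.034) although its groups overlapped slightly, and the call was lost when any library except scrambled siRNA replicate 2 was left out (log2 fold changes of -0.57 to -0.40, limma adjusted p of 0.0535 to 0.127). *GINS3* did not follow the other 3 GINS subunits. It had values of 16.7, 17.3 and 22.8 against 19.6, 18.5 and 17.5, which overlapped, and a log2 fold change of -0.02 with a 95% confidence interval of -0.32 to 0.28. It was also the 1 gene with an E2F-type match that was not called.

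**Figure D2:**
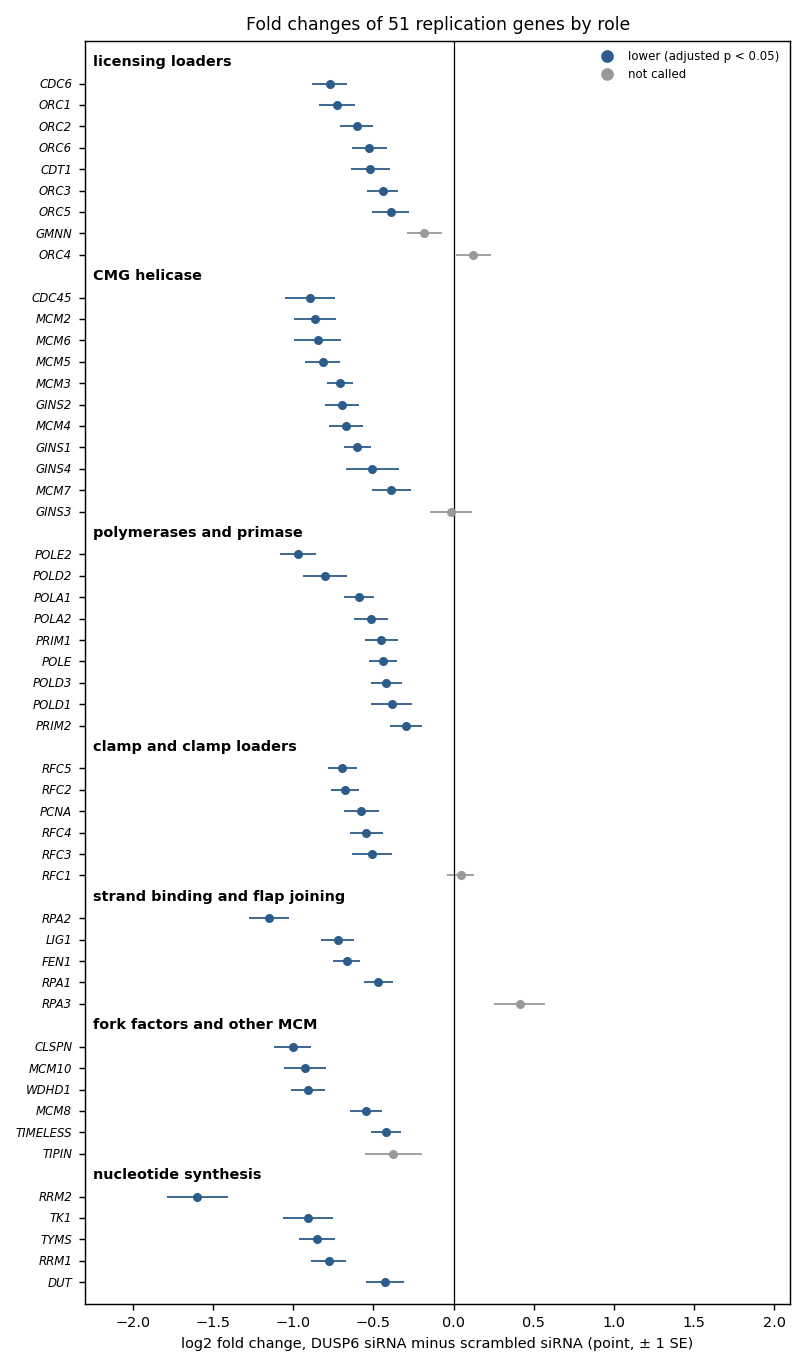
Log2 fold changes of the 51 genes by role, as points with bars of 1 SE, *DUSP6* siRNA minus scrambled siRNA (n = 3 each). The 45 genes called lower (dark blue) lie between -1.60 and -0.30, and the 6 gray genes are those not called.

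All 9 polymerase and primase genes were called lower, with the smallest median fall of the 7 roles (-0.45). With scaling to library totals 4 of the 9 were lower, and *POLD1*, *POLD3*, *POLE*, *PRIM1* and *PRIM2* lost their calls. *POLE2*, the second subunit of the leading-strand polymerase, had values of 32.4, 26.8 and 28.2 after scrambled siRNA and 15.4, 13.4 and 14.3 after *DUSP6* siRNA. On the log2 scale this was -0.97 ± 0.11 (limma adjusted p = 0.000216), while *POLE*, its catalytic partner, fell by 0.44. *POLD2*, an accessory subunit of polymerase delta, went from 222, 160 and 215 to 123, 102 and 113, and *POLA1*, the catalytic subunit of polymerase alpha, from 43.8, 46.0 and 46.3 to 31.6, 27.7 and 30.1. Their log2 fold changes were -0.80 ± 0.14 and -0.59 ± 0.09 (limma adjusted p = 0.00168 and 0.00114), without overlap between groups. *POLA2*, *PRIM1*, *POLD3* and *POLD1* fell by 0.52, 0.45, 0.42 and 0.39 on the log2 scale.

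*PRIM2*, the large primase subunit, changed least of the 9. Its values were 18.2, 16.8 and 19.0 against 15.0, 14.3 and 14, without overlap, and the log2 fold change was -0.30 ± 0.10 (limma adjusted p = 0.0395). The call was lost when any library except scrambled siRNA replicate 2 was left out (log2 fold changes of -0.32 to -0.26, limma adjusted p of 0.0534 to 0.154). *POLD1*, the catalytic subunit of polymerase delta, lost its call without scrambled siRNA replicate 2 or 3 or *DUSP6* siRNA replicate 2 or 3 (log2 fold changes of -0.41 to -0.30, limma adjusted p of 0.0534 to 0.147). Of the *PRIM1* exon bases, 8.64% overlap exons of *HSD17B6* on the opposite strand, so its values are uncertain.

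The clamp *PCNA* and 4 of the 5 clamp loader genes fell (median log2 fold change -0.56 over the 6). Scaling to library totals left 4 of the 6 lower, as *RFC3* lost its call. *RFC1* was then called higher (0.27, limma adjusted p = 0.033). *PCNA* had values of 185, 147 and 171 after scrambled siRNA and 121, 105 and 110 after *DUSP6* siRNA, without overlap (log2 fold change -0.57 ± 0.11, limma adjusted p = 0.00273). *RFC5* went from 52.2, 55.9 and 56.2 to 34.9, 31.7 and 33.9, and *RFC2* from 80.6, 84.5 and 88.5 to 54.5, 49.7 and 53.3. These small subunits of the loader had log2 fold changes of -0.69 and -0.68, each ± 0.09 (limma adjusted p = 0.000414 and 0.0004). *RFC4* and *RFC3* fell by 0.54 and 0.51. *RFC1*, the large subunit that makes the complex specific for PCNA, had 64.4, 68.7 and 65.6 against 65.2, 70.7 and 69.4. The groups overlapped, and the 95% confidence interval of its log2 fold change, -0.15 to 0.24, leaves out the falls of *RFC2* to *RFC5*.

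Among the strand-binding and flap-joining genes, 4 of 5 fell, and the 3 RPA subunits spread more than those of the other 5 complexes compared. Scaling to library totals left 3 of the 5 lower, as *RPA1* lost its call. *RPA3* was then called higher (0.63, limma adjusted p = 0.0163). *RPA2*, the middle subunit of the single-strand binding protein, had values of 116, 91.1 and 89.3 after scrambled siRNA and 47.4, 39.1 and 44.8 after *DUSP6* siRNA. It fell from 98.8 ± 15.0 to 43.8 ± 4.21 (mean ± SD, n = 3), which was -1.15 ± 0.12 on the log2 scale (limma adjusted p = 0.000163), while *RPA1*, the large subunit, fell by 0.47. *RPA3*, the small subunit, had 15.5, 13.7 and 22.0 against 22.1, 23.4 and 22.3. The highest control and the lowest knockdown library nearly met, and the log2 fold change of 0.41 ± 0.16 was not called (limma adjusted p = 0.0608, 95% confidence interval 0.05 to 0.77). Without scrambled siRNA replicate 3 it was called higher, at 0.60 (limma adjusted p = 0.00173), and with the replicate numbers as a block it was called higher too (limma adjusted p = 0.0452). Of the *RPA3* exon bases, 5.84% overlap exons of *UMAD1* on the opposite strand, so its values are uncertain.

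*LIG1*, the ligase that joins Okazaki fragments, had values of 123, 117 and 136 after scrambled siRNA and 83.2, 68.8 and 74.9 after *DUSP6* siRNA. *FEN1*, the flap nuclease that acts before it, went from 98.5, 92.1 and 103 to 63.8, 59.7 and 59.8. Both fell without overlap, with log2 fold changes of -0.72 ± 0.10 and -0.67 ± 0.09 (limma adjusted p = 0.000644 and 0.000409).

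**Figure D3:**
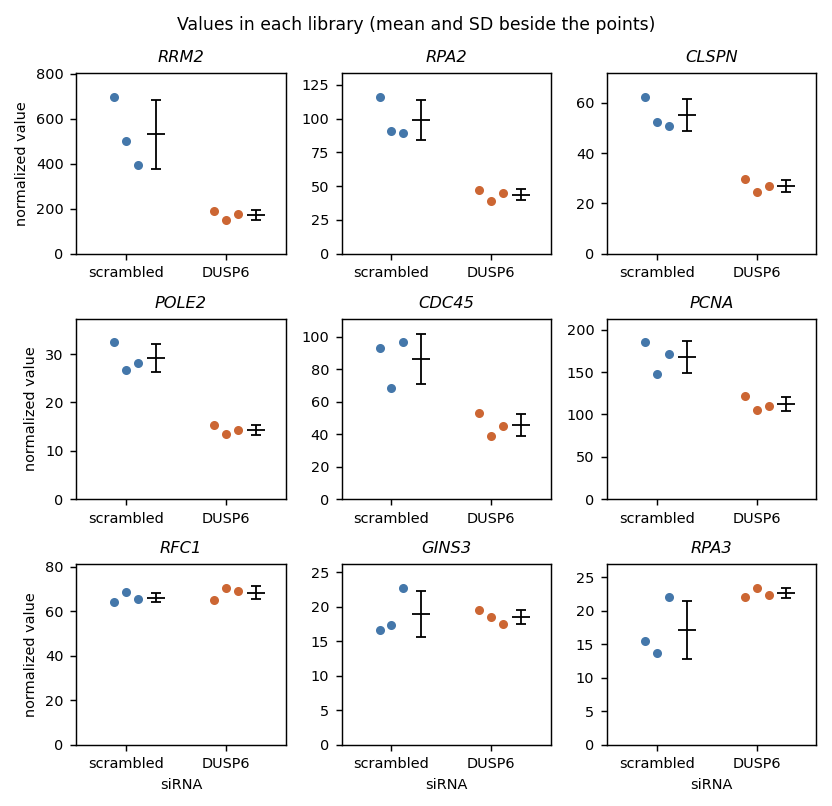
Normalized values (axes from 0) of 9 genes in each of the 6 libraries, with the mean and SD of each group (n = 3) beside the points. *RRM2*, *RPA2*, *CLSPN*, *POLE2*, *CDC45* and *PCNA* separate without overlap, *RFC1* and *GINS3* overlap, and in *RPA3* the knockdown points lie at or above the highest control of 22.0.

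The fork factors fell in 5 of 6 genes (median -0.73 on the log2 scale). Scaling to library totals left 4 lower, as *TIMELESS* lost its call. *CLSPN* encodes claspin, which links the fork to the checkpoint kinase CHK1. It had values of 62.4, 52.2 and 50.9 after scrambled siRNA and 29.5, 24.6 and 26.8 after *DUSP6* siRNA. The groups did not overlap, and the log2 fold change was -1.0 ± 0.11 (limma adjusted p = 0.000208). *MCM10*, which activates the loaded helicase, went from 76.8, 55.3 and 62.9 to 36.9, 30.7 and 32.9, and *WDHD1*, which ties polymerase alpha to the helicase, from 58.0, 50.9 and 61.2 to 31.8, 27.3 and 30.0. Their log2 fold changes were -0.93 ± 0.13 and -0.91 ± 0.11 (limma adjusted p = 0.000675 and 0.000241), and neither overlapped. *MCM8* and *TIMELESS* fell by 0.55 and 0.42. *TIPIN*, the partner of TIMELESS, had 24.4, 15.4 and 26.0 against 16.8, 15.6 and 16.4, with scrambled siRNA replicate 2 as low as the knockdown libraries. It was not called (log2 fold change -0.38, limma adjusted p = 0.114), and without that replicate it was called lower at -0.60 (limma adjusted p = 0.00307).

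All 5 nucleotide synthesis genes fell, with the largest median fall of the 7 roles (-0.85). Scaling to library totals left 4 lower, as *DUT* lost its call. *RRM2*, the small subunit that limits ribonucleotide reductase in S phase, had values of 698, 503 and 395 after scrambled siRNA and 190, 149 and 174 after *DUSP6* siRNA. The mean went from 532 ± 154 to 171 ± 21.0 (SD, n = 3), which was -1.60 ± 0.19 on the log2 scale (limma adjusted p = 0.000256). The controls spread widely, but the highest knockdown value was still 0.481 of the lowest control. *RRM1*, the large subunit, had 167, 149 and 194 against 103, 94.9 and 96.1 and fell by 0.78.

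*TK1*, the thymidine kinase of dividing cells, had values of 69.1, 69.2 and 97.9 after scrambled siRNA and 48.4, 37.8 and 37.4 after *DUSP6* siRNA (log2 fold change -0.91 ± 0.16, limma adjusted p = 0.00191). *TYMS*, thymidylate synthase, went from 14.7, 16.2 and 16.7 to 9.24, 7.69 and 8.08 (log2 fold change -0.85 ± 0.11, limma adjusted p = 0.000455). All *TYMS* values are uncertain, because 60.0% of its exon bases overlap exons of *ENOSF1* on the opposite strand and default counting does not use strand. *DUT*, the dUTPase that keeps uracil out of DNA, changed least, from 120, 98.9 and 133 to 93.9, 80.7 and 84.5 (log2 fold change -0.43 ± 0.12, limma adjusted p = 0.0181). Its call was lost without scrambled siRNA replicate 1 (-0.41, limma adjusted p = 0.0513) or *DUSP6* siRNA replicate 2 or 3 (-0.38 and -0.41, limma adjusted p = 0.0799 and 0.0657). Quantile normalization and library totals gave -0.31 and -0.20 (limma adjusted p = 0.0588 and 0.221). *DUT* also has 8 annotated pseudogene copies that could take its reads, and *RRM2*, *PCNA* and *RPA2* have 3 each.

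Levels of subunits were compared per kilobase of the canonical transcript. In the MCM2-7 ring *MCM7* was highest and *MCM6* lowest in both groups, and the ratio between them was 2.42 after scrambled siRNA and 3.36 after *DUSP6* siRNA. In the clamp loader the ratio of *RFC2*, the highest, to *RFC1*, the lowest, went from 3.69 to 2.22. In RPA the highest subunit stood 7.38 times above the lowest in the controls, *RPA2* at 62.4 per kb and *RPA3* at 8.46 per kb, and after *DUSP6* siRNA *RPA2*, at 27.6 per kb, stood 2.59 times above *RPA1*, then the lowest at 10.7 per kb.

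**Figure D4:**
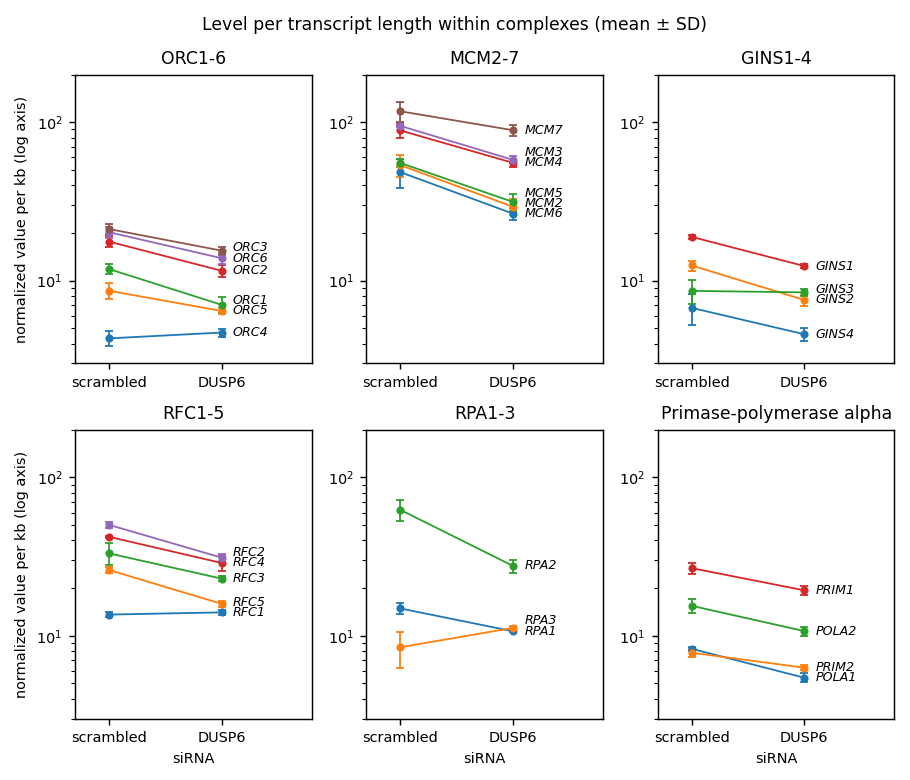
Mean normalized value per kilobase (log axis, ± SD, n = 3) of each subunit after scrambled siRNA (left) and *DUSP6* siRNA (right), for 6 complexes. Most lines slope down, while *ORC4*, *GINS3*, *RFC1* and *RPA3* are flat or rise. *RPA2* and *RPA3* come closer, their levels 7.38-fold apart in the controls.

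Ratios between partners within a library, chosen after the values were seen and given as a description, show the unequal changes. The *RPA2* to *RPA3* ratio was 7.50, 6.63 and 4.06 in the scrambled siRNA libraries and 2.14, 1.67 and 2.01 in the *DUSP6* siRNA libraries. The *RFC5* to *RFC1* ratio was 0.810, 0.814 and 0.856 against 0.535, 0.448 and 0.489, and the *ORC1* to *ORC4* ratio 1.48, 1.28 and 1.19 against 0.842, 0.599 and 0.714. Those of *GINS2* to *GINS3* were 1.95, 1.75 and 1.55 against 1.09, 0.992 and 1.13. None of these 4 overlapped between the groups. For *RPA2* to *RPA3* this follows from the single genes, as *RPA2* was lower and *RPA3* higher, both without overlap. The *CDT1* to *GMNN* and the *TIPIN* to *TIMELESS* ratios did overlap.

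Of 29 other replication genes, 16 were lower, 2 were higher and 11 were not called (median -0.39 on the log2 scale). Over all genes tested, 24.7% were lower and 19.7% higher. With scaling to library totals 9 of the 29 were lower, and 1800 of all 12862 genes. The largest falls were in *CHAF1B* and *CHAF1A*, subunits of the chaperone that places histones on new DNA. *CHAF1B* had values of 45.0, 38.5 and 41.3 after scrambled siRNA and 22.8, 19.3 and 21.2 after *DUSP6* siRNA (log2 fold change -0.95, limma adjusted p = 0.000195), and *CHAF1A* had 79.7, 71.8 and 76.2 against 47.2, 39.2 and 41.3 (-0.82, limma adjusted p = 0.000299). The 2 higher genes were *POLD4*, the smallest subunit of polymerase delta, and *CHTF8*, a subunit of an alternative clamp loader. *POLD4* rose from 14.7, 19.9 and 22.1 to 24.6, 25.9 and 24.8 (log2 fold change 0.41, limma adjusted p = 0.0437), and *CHTF8* from 47.4, 44.4 and 60.9 to 64.1, 70.5 and 65.1 (0.39, limma adjusted p = 0.0296). The *CHTF8* values are uncertain, since 12.5% of its exon bases overlap exons of *HAS3* on the opposite strand.

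Of 30 other nucleotide genes, 12 were lower, 3 were higher and 15 were not called (median -0.26 on the log2 scale). Over all genes tested, 24.7% were lower and 19.7% higher. With scaling to library totals 7 of the 30 were lower, and 1800 of all 12862 genes. Without scrambled siRNA replicate 2 there were 19 of the 30, and 3191 of all genes. *IMPDH1*, a rate-limiting enzyme of guanine nucleotide synthesis, had values of 70.1, 73.6 and 60.5 after scrambled siRNA and 28.9, 26.6 and 25.9 after *DUSP6* siRNA (log2 fold change -1.29, limma adjusted p = 3.49e-05). *PRPS1*, which makes the activated ribose used in purine and pyrimidine synthesis, went from 57.4, 41.8 and 47.8 to 24.1, 23.0 and 24.4 (-1.0, limma adjusted p = 0.000319). Neither overlapped between the groups. *IMPDH1* has 10 annotated pseudogene copies and *PRPS1* 2, which could take their reads.

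The 3 nucleotide genes that rose were *SAMHD1*, *DGUOK* and *RRM2B*. *SAMHD1*, which breaks deoxynucleotides down, had values of 15.1, 9.73 and 10.7 after scrambled siRNA and 42.7, 35.5 and 44 after *DUSP6* siRNA (log2 fold change 1.71 ± 0.16, limma adjusted p = 7.73e-05). *DGUOK*, a mitochondrial deoxynucleoside kinase, went from 21.4, 17.8 and 20.9 to 28.5, 32.4 and 28.8 (0.56, limma adjusted p = 0.00368). *RRM2B*, the p53-inducible alternative to *RRM2*, went from 48.2, 47.1 and 54.9 to 65.1, 81.3 and 69.5 (0.51, limma adjusted p = 0.00567). The *RRM2* to *RRM2B* ratio within a library, also chosen after the values were seen, was 14.5, 10.7 and 7.20 in the scrambled siRNA libraries and 2.92, 1.83 and 2.51 in the *DUSP6* siRNA libraries. Likewise the *DCK* to *DGUOK* ratio, of the cytosolic to the mitochondrial kinase, was 1.37, 1.65 and 1.73 against 0.723, 0.603 and 0.663, and the *TK1* to *TK2* ratio was 8.23, 7.08 and 8.52 against 4.90, 3.24 and 3.67. The *DGUOK* and *DCK* values are uncertain, since 5.77% of the *DGUOK* exon bases overlap *DGUOK-AS1* on the opposite strand and 7.94% of those of *DCK* overlap *MOB1B* on the same strand. All 3 ratios were lower after *DUSP6* siRNA without overlap. For *RRM2* to *RRM2B* and *DCK* to *DGUOK* this follows from the single genes. In each pair the first gene was lower and the second higher, both without overlap.

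**Figure D5:**
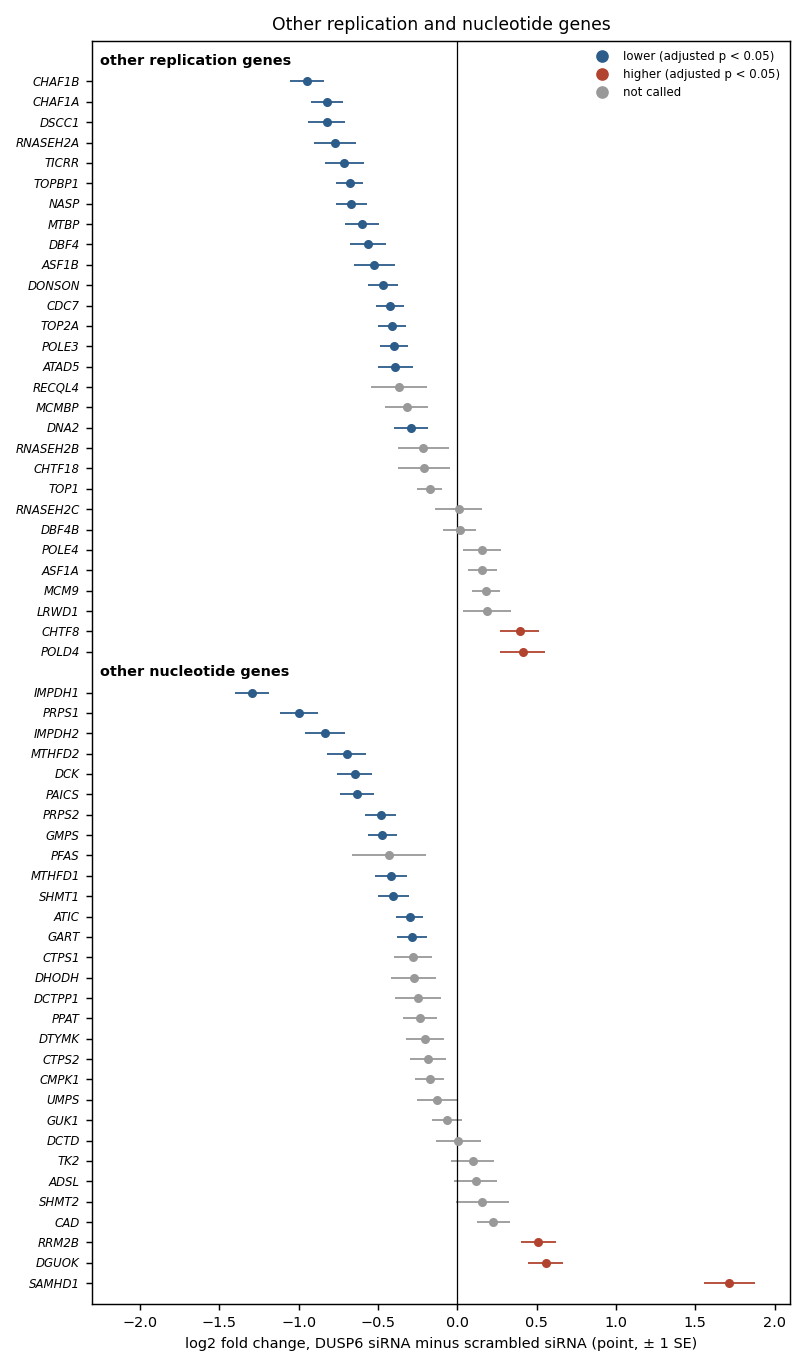
Log2 fold changes (points, bars of 1 SE, n = 3 per group) of the 29 other replication genes and the 30 other nucleotide genes, *DUSP6* siRNA minus scrambled siRNA. Blue marks genes called lower, red genes called higher and gray genes not called, and *SAMHD1* lies far to the right at 1.71.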

How the data were processed

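RNA of MDA-MB-453 cells was sequenced in 6 stranded mRNA libraries. The authors aligned reads to hg38 with Rsubread and assigned them to RefSeq gene models with default settings. The submitters' processing notes also name bcl2fastq and edgeR. The deposited signal values are 1 normalized value per gene and library. Divided by the smallest step of its library, every value came out as whole reads (100% within 0.01 of a step), and the steps matched edgeR's TMM scaling, so depth and composition were already adjusted for. 1 read corresponds to a value of 0.0121 to 0.0202.

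Testing was on log2(value + 1), for genes whose mean over all libraries reached 1, with limma 3.58.1 (lmFit, eBayes with a trend) in R 4.3.3, with Benjamini-Hochberg adjustment over all 12862 genes. A gene was called below an adjusted p of 0.05. The fit was tested on simulated data. It called 69.8%, 97.1% and 97.1% of genes changed by 0.5, 1 and 2 on the log2 scale, and 5 unchanged genes. The simulated spread was set and not taken from these libraries, so the share recovered here may differ. edgeR 4.0.16 on the recovered reads, other scalings, filters and pseudocounts, a replicate block and leaving out each library were alternatives. Intervals are 95%. The fold change of low genes is understated by the pseudocount. Nothing in the labels says that libraries of a group came from separate cultures, so p-values measure only the spread between these libraries. The 51 genes and the other lists were chosen with earlier results of these data known. Named in full were, per role, the 3 largest falls, the smallest change and the largest rise, and in the other lists the 2 largest falls and rises. Transcript lengths and exon overlap came from GENCODE 44. Genes described by value with over 5% exon overlap are marked uncertain. 1 gene of the other nucleotide list is not reported here.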

Additional observations from a re-analysis of the deposited data

How the results depend on the processing

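Over 15 alternative fits, the number of the 51 genes called lower ranged from 31 to 45, and 31 of the 45 kept their call in every one. Among all genes the number called lower ranged from 1800 to 3581. Scaling to library totals made the most difference: 31 members lower and 3 higher (*ORC4*, *RFC1* and *RPA3*), 4 licensing loaders and 4 polymerase and primase genes lower, 9 other replication genes and 7 other nucleotide genes lower, and 1800 lower and 4777 higher among all genes. *GMNN* and *GINS3*, neither called, turned to 0.042 and 0.20 under it. Quantile normalization called 42 members lower and 1 higher, beside 2887 lower and 2958 higher among all genes. No filter gave 41 members lower, beside 3201 of all genes, of more tested. A mean value of at least 10 left 1639 genes higher, of fewer tested. Leaving out 1 library gave 39 to 45 members lower and 0 to 1 higher (*RPA3*, without scrambled siRNA replicate 3). Among all genes these fits gave 2306 to 3581 lower and 1574 to 3183 higher (1574 without *DUSP6* siRNA replicate 2). They gave 9 to 19 other nucleotide genes lower (19 without scrambled siRNA replicate 2) and a *GINS3* log2 fold change of -0.10 to 0.11. With the replicate numbers as a block, 44 members were lower and 1 was higher: *PRIM2* lost its call and *RPA3* gained one. Among all genes 3096 were then lower and 2495 higher. Libraries with the same number correlated at 0.01, 0.09 and -0.08 in their deviations. No pairing by number was seen, but with so few libraries this cannot exclude one, and the labels do not state it. The causes were not tested. The calls of *MCM7*, *GINS4*, *POLD1* and *PRIM2* were lost in 7 to 8 of the 15 fits. The share of counting error in the spread between libraries was not tested.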
